A study of Zea mays with 72 samples.

Results

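The maize gene acs7 encodes a 1-aminocyclopropane-1-carboxylate (ACC) synthase, an enzyme of ethylene synthesis. It was taken as the row of the deposited count table whose NCBI Gene entry carries the synonym acs7 (LOC100279981), 1 of 32235 genes with values. RNA had been sequenced from 72 libraries of inbred B73, in 12 groups of 6 that the labels call biological replicates. Each group was a leaf age by treatment combination. Leaf 4, the mature leaf, and leaves 5 and 6, the immature ones, were detached from V4 seedlings and stood in water. All leaves in all groups, controls included, were therefore cut, and had at least 2 h of recovery and then at least 2 h in clean air. Leaf 4 alone also lost its sheath, so leaf age and sheath removal cannot be told apart in any comparison of leaf 4 with the younger leaves. The treatments were the leaf volatile (Z)-3-hexenyl acetate, or HAC, which damaged leaves release, given from dispensers for 30 min or 2 h, and ZmPep3, a maize plant elicitor peptide, given in the water at about 1 µM for 2 h. Each leaf had 1 control group, whose sampling hour the labels do not give, so all treatments of a leaf are compared with the same 6 control libraries.

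In plants, ethylene is made from methionine. S-adenosylmethionine synthase makes the activated precursor, ACC synthase turns it into ACC, and ACC oxidase turns ACC into ethylene. ACC synthase is usually the controlled step, and its genes are known in many plants to respond to wounding. Ethylene is perceived by membrane receptors that repress the pathway until the hormone binds them. In maize leaves it acts with jasmonate in defence against chewing insects.

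Library totals ran from 26212027 to 31052273 expected counts, with a median of 29911694, and no pair of libraries held identical values. Counts of acs7 ran from 92 to 2198 and were whole numbers in 72 of 72 libraries. Green leaf markers were high in every library, and the level summed over 5 of them (ssu1, pep1, pdk1, me3 and cab1) had medians by group from 17664 to 37222 FPKM, a unit scaled to transcript length and to mapped fragments. It was lower in leaf 4 than in leaves 5 and 6, with control medians of 21746, 34362 and 37222 FPKM, and it had its lowest median of each leaf under ZmPep3. Of these markers pdk1 alone went the other way between leaves. Its medians over all libraries of a leaf were 3293, 2894 and 1946 FPKM in leaves 4, 5 and 6. The summed level of the ligule genes lg1, lg2 and lg4 had control medians of 2.23, 2.88 and 6.91 FPKM in leaves 4, 5 and 6, lg3 had no values, and the meristem gene kn1 never exceeded 0.23 FPKM. The part of tissue composition in the results was not tested. Leaf 6 control replicates 6 and 5 deviated most from their group across all genes, with mean squared deviations of 0.457 and 0.440 against a median of 0.210 over libraries.

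acs7 was a low to moderate transcript in untreated leaves and rose to the upper part of the leaf's genes under ZmPep3. Its mean control level was 3.16 FPKM in leaf 4, 4.02 FPKM in leaf 5 and 3.74 FPKM in leaf 6. At these means it stood above 38.9%, 45.8% and 44.7% of the 25558 genes tested. The leaf 6 mean includes replicate 4 at 9.02 FPKM. The control medians were 3.09, 4.095 and 2.725 FPKM, so that by median leaf 6 was below leaf 4. Under ZmPep3 the means were 28.4, 24.0 and 31.8 FPKM, above 85.5%, 83.6% and 88.1% of the genes. After HAC for 30 min it stood at 6.04, 15.8 and 15.6 FPKM in leaves 4, 5 and 6, above 53.4%, 78.6% and 78.0%. After HAC for 2 h it stood at 3.72, 8.54 and 6.57 FPKM, above 42.9%, 65.5% and 60.8%.

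The libraries are described next in CPM, counts relative to the library total after scaling by TMM. In leaf 4, acs7 had a lowest, median and highest level of 2.93, 4.32 and 6.13 CPM in the controls. After HAC for 30 min these were 5.51, 8.23 and 11.8 CPM, and after HAC for 2 h 3.53, 5.54 and 6.55 CPM. Under ZmPep3 they were 17.8, 49.1 and 72.04 CPM. The ZmPep3 libraries of leaf 4 all lay above its controls, but they spread widely, with replicates 6 and 5 at 17.8 and 27.1 CPM and the other 4 at or above 44.5 CPM. After 30 min of HAC, 5 of 6 libraries lay above all controls, and after 2 h, 2 of 6.

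In leaf 5 the controls had 5.19, 6.76 and 8.02 CPM of acs7 as lowest, median and highest level. The same values were 20.4, 27.97 and 36.2 CPM after HAC for 30 min and 10.8, 12.7 and 21.3 CPM after HAC for 2 h. Under ZmPep3 they were 32.02, 43.7 and 45.1 CPM. No treated library of leaf 5 overlapped the controls under any of the 3 treatments.

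In leaf 6 the controls had 3.09, 4.604 and 15.6 CPM of acs7. The highest was replicate 4, and the other 5 lay between 3.09 and 5.91 CPM. After HAC for 30 min the lowest, median and highest levels were 25.9, 28.5 and 34.7 CPM, after HAC for 2 h 6.63, 13.7 and 16.6 CPM, and under ZmPep3 39.0, 59.9 and 74.4 CPM. The libraries of 30 min of HAC and of ZmPep3 lay above all controls. Those of 2 h of HAC lay above the other 5 controls, but only 1 of 6 lay above replicate 4.

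**Figure D1:**
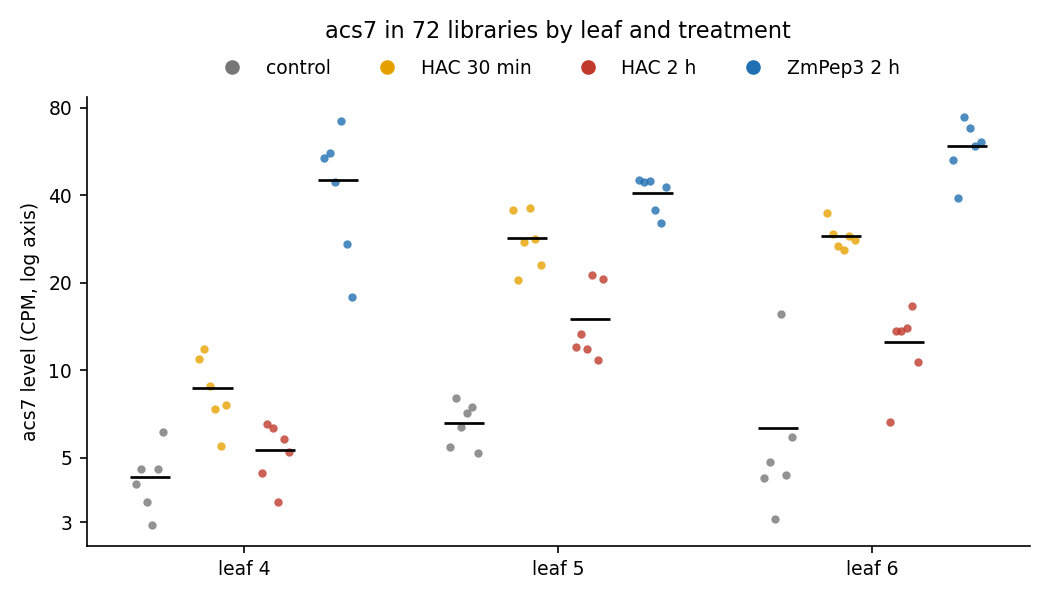
Level of acs7 in CPM (vertical log axis) in each of the 72 libraries, by leaf and treatment; points are libraries and black lines are group means. The ZmPep3 libraries run from 17.8 to 74.4 CPM across the leaves, and HAC for 30 min gives 20.4 to 36.2 CPM in leaves 5 and 6 against 5.51 to 11.8 CPM in leaf 4.

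Ordered by mean (± SD, n = 6), acs7 was lowest in leaf 4 control at 4.30 ± 1.10 CPM. It was followed by leaf 4 HAC 2 h at 5.32 ± 1.17, leaf 6 control at 6.35 ± 4.62, leaf 5 control at 6.61 ± 1.14 and leaf 4 HAC 30 min at 8.70 ± 2.37 CPM. The next were leaf 6 HAC 2 h at 12.5 ± 3.46, leaf 5 HAC 2 h at 15.0 ± 4.69, leaf 5 HAC 30 min at 28.6 ± 6.43 and leaf 6 HAC 30 min at 29.0 ± 3.09 CPM. The ZmPep3 groups were highest, with leaf 5 at 40.8 ± 5.57, leaf 4 at 45.2 ± 19.9 and leaf 6 at 59.1 ± 12.3 CPM. The ranges of all 11 neighbouring pairs in this order overlapped. Neighbours differed by less than their pooled SD from leaf 4 control up to leaf 5 control, between leaves 5 and 6 at either HAC time, and among the ZmPep3 groups.

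The comparison of each treatment with its control asks whether the leaf's acs7 responds to the volatile or to the peptide. ZmPep3 raised acs7 in every leaf. It rose by 3.39 ± 0.27 on the log2 scale (± SE, 10.5-fold) in leaf 4, by 2.63 ± 0.26 (6.18-fold) in leaf 5 and by 3.22 ± 0.27 (9.30-fold) in leaf 6. The adjusted p were 3.05e-16, 5.45e-13 and 5.40e-16 (edgeR quasi-likelihood test, Benjamini-Hochberg over the 25558 genes, threshold 0.05). ZmPep3 moved much of the transcriptome, and 42.2%, 45.4% and 42.1% of all genes tested passed in these comparisons. In whole-leaf RNA, more cells with a transcript and more transcript per cell cannot be told apart.

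HAC for 30 min raised acs7 in all 3 leaves as well. The log2 fold change was 1.01 ± 0.26 (2.02-fold, adjusted p = 0.0121 by edgeR) in leaf 4, where 4.38% of all genes passed. It was 2.11 ± 0.26 (4.32-fold, adjusted p = 1.73e-09) in leaf 5 and 2.19 ± 0.26 (4.57-fold, adjusted p = 4.89e-10) in leaf 6, with 12.9% and 11.7% of all genes passing. Leaving out leaf 6 control replicate 4 gave a larger change in leaf 6, of 2.69 for HAC for 30 min and 3.71 for ZmPep3. Leaving out each library in turn ended no call of acs7 in the 9 comparisons of a treatment with its control.

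After 2 h of HAC, acs7 was still raised in the immature leaves. The log2 fold change was 1.18 ± 0.26 (2.27-fold, edgeR adjusted p = 0.000452, 16.9% of all genes passing) in leaf 5. It was 0.98 ± 0.26 (1.98-fold, adjusted p = 0.00259, 24.9% passing) in leaf 6, and 1.48 without leaf 6 control replicate 4. When only the 12 libraries of leaf 6 control and leaf 6 HAC 2 h were fitted, the change in leaf 6 was the same size and its adjusted p was 0.0787. In leaf 4 the change was 0.31 ± 0.26 (adjusted p = 0.638, 1.69% of all genes passing), with a 95% interval from -0.22 to 0.83, so that a rise of up to 0.83 is within its error.

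The comparison of HAC times asks whether the level of acs7 was held from 30 min to 2 h. The part of sampling hour, or of time since the leaf was cut, in this comparison was not tested. acs7 was lower after 2 h than after 30 min in the immature leaves, by -0.93 ± 0.25 in leaf 5 (edgeR adjusted p = 0.00523, 15.4% of all genes passing) and by -1.21 ± 0.25 in leaf 6 (adjusted p = 0.000151, 20.6% passing). In leaf 6 none of the 2 h libraries reached the lowest 30 min library, and in leaf 5 the ranges overlapped between 20.4 and 21.3 CPM. In leaf 4 the difference was -0.71 ± 0.26 and did not pass (adjusted p = 0.117, 3.6% passing). It passed when only the libraries of leaf 4 HAC 30 min and HAC 2 h were fitted (adjusted p = 0.0406).

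At the shared time of 2 h, acs7 was higher under ZmPep3 than under HAC in every leaf. The log2 difference was 3.08 ± 0.27 in leaf 4, 1.45 ± 0.25 in leaf 5 and 2.24 ± 0.26 in leaf 6. The edgeR adjusted p were 2.23e-14, 5.45e-06 and 1.73e-10, with 31.2%, 26.2% and 19.3% of all genes passing. The libraries of the agents did not overlap in any leaf. The agents differ in kind and in route, volatile against solution, so these are levels under each treatment as given and not a comparison at matched dose.

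The leaves were then compared within each treatment. In controls, acs7 was 0.62 ± 0.26 higher on the log2 scale in leaf 5 than in leaf 4 (edgeR adjusted p = 0.0399), where 55.8% of all genes passed. This call was close to the threshold. It was lost when any of leaf 4 control replicates 1, 3 and 4 or leaf 5 control replicates 2, 4 and 5 was left out, with values from 0.53 to 0.74 over the 12 libraries left out. On FPKM values with a pseudocount of 0.1, which carry no TMM scaling, it was 0.36 (limma adjusted p = 0.184). The TMM factors ran from 1.15 to 1.24 in leaf 4 controls and from 0.955 to 1.07 in leaf 5 controls. The part of this scaling in the difference was not tested. Leaf 6 against leaf 4 gave 0.56 ± 0.26 (adjusted p = 0.0521, 70.5% passing), and 0.06 without leaf 6 control replicate 4. Leaf 6 against leaf 5 gave -0.06 ± 0.26 (adjusted p = 0.882, 45% passing), and -0.55 with an edgeR adjusted p of 0.0506 without leaf 6 control replicate 4.

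After HAC the immature leaves held more acs7 than leaf 4. At 30 min the log2 difference from leaf 4 was 1.72 ± 0.25 for leaf 5 (edgeR adjusted p = 4.26e-08, 54.6% of all genes passing) and 1.74 ± 0.26 for leaf 6 (adjusted p = 1.43e-08, 70.5% passing). At 2 h it was 1.49 ± 0.26 for leaf 5 (adjusted p = 1.45e-06, 54.7% passing) and 1.24 ± 0.26 for leaf 6 (adjusted p = 2.53e-05, 70.9% passing). Under other processing these differences passed throughout, with lowest values of 1.27 and 1.26 at 30 min and 1.00 and 0.66 at 2 h. TMM factors after HAC were at least 1.097 in leaf 4 and at most 0.977 in leaves 5 and 6. The part of this scaling was not tested here either. Leaves 5 and 6 differed by 0.02 ± 0.25 at 30 min (adjusted p = 0.953, 44.3% passing) and by -0.26 ± 0.25 at 2 h (adjusted p = 0.427, 44.3% passing). Under ZmPep3 no pair of leaves passed. Leaf 5 differed from leaf 4 by -0.14 ± 0.24 (adjusted p = 0.639, 55.3% passing; 0.04 without leaf 4 ZmPep3 replicate 4), leaf 6 from leaf 4 by 0.39 ± 0.24 (adjusted p = 0.1499, 70.4% passing) and leaf 6 from leaf 5 by 0.53 ± 0.24 (adjusted p = 0.0704, 43.5% passing). Without leaf 4 ZmPep3 replicate 4, leaf 6 against leaf 4 was 0.57 and passed (adjusted p = 0.0361), and without leaf 6 ZmPep3 replicate 2, leaf 6 against leaf 5 was 0.63 and passed (adjusted p = 0.0365).

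Whether the response itself differed between leaves was tested as a difference of log2 fold changes. The rise of acs7 after 30 min of HAC was larger in leaf 6 than in leaf 4 by 1.18 ± 0.36 (edgeR adjusted p = 0.0396, 95% interval 0.45 to 1.90), where 5.25% of all genes passed. In leaf 5 it was larger than in leaf 4 by 1.10 ± 0.36, which did not pass (adjusted p = 0.0783, interval 0.38 to 1.82, 3.16% passing). Leaves 6 and 5 differed by 0.08 ± 0.36 (adjusted p = 0.969, interval -0.63 to 0.79, 0.36% passing), by 0.58 without leaf 6 control replicate 4 (adjusted p = 0.4601) and by -0.06 without leaf 6 control replicate 3. The first call was lost when any 1 of 11 of the 24 libraries was left out (highest adjusted p = 0.0853), namely leaf 4 control replicates 2 and 6, leaf 4 HAC 30 min replicates 4, 5 and 6, leaf 6 control replicates 1, 2, 3, 5 and 6, and leaf 6 HAC 30 min replicate 1. It was 1.67 (adjusted p = 0.00011) without leaf 6 control replicate 4. The difference for leaf 5 passed without leaf 4 control replicate 4 or without leaf 4 HAC 30 min replicate 2, at an adjusted p down to 0.0462.

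After 2 h of HAC the difference in response from leaf 4 was 0.88 ± 0.37 for leaf 5 (edgeR adjusted p = 0.239, interval 0.15 to 1.61, 2.68% of all genes passing). It was 0.68 ± 0.37 for leaf 6 (adjusted p = 0.253, interval -0.06 to 1.41, 11.3% passing), and 1.17 with an adjusted p of 0.00932 without leaf 6 control replicate 4. Leaf 6 against leaf 5 gave -0.20 ± 0.36 (adjusted p = 0.866, interval -0.92 to 0.52, 1.74% passing), and 0.30 without that library (adjusted p = 0.73), so the sign of this difference turned on it. For ZmPep3 the differences were -0.76 ± 0.36 for leaf 5 against leaf 4 (adjusted p = 0.198, interval -1.48 to -0.05, 7.48% passing), -0.17 ± 0.36 for leaf 6 against leaf 4 (adjusted p = 0.804, interval -0.88 to 0.54, 18.6% passing) and 0.59 ± 0.36 for leaf 6 against leaf 5 (adjusted p = 0.4657, interval -0.12 to 1.301, 2.07% passing). Without leaf 6 control replicate 4 the ZmPep3 difference for leaf 6 was 0.33 against leaf 4 (adjusted p = 0.529), with the sign turned, and 1.09 against leaf 5 (adjusted p = 0.0504).

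**Figure D2:**
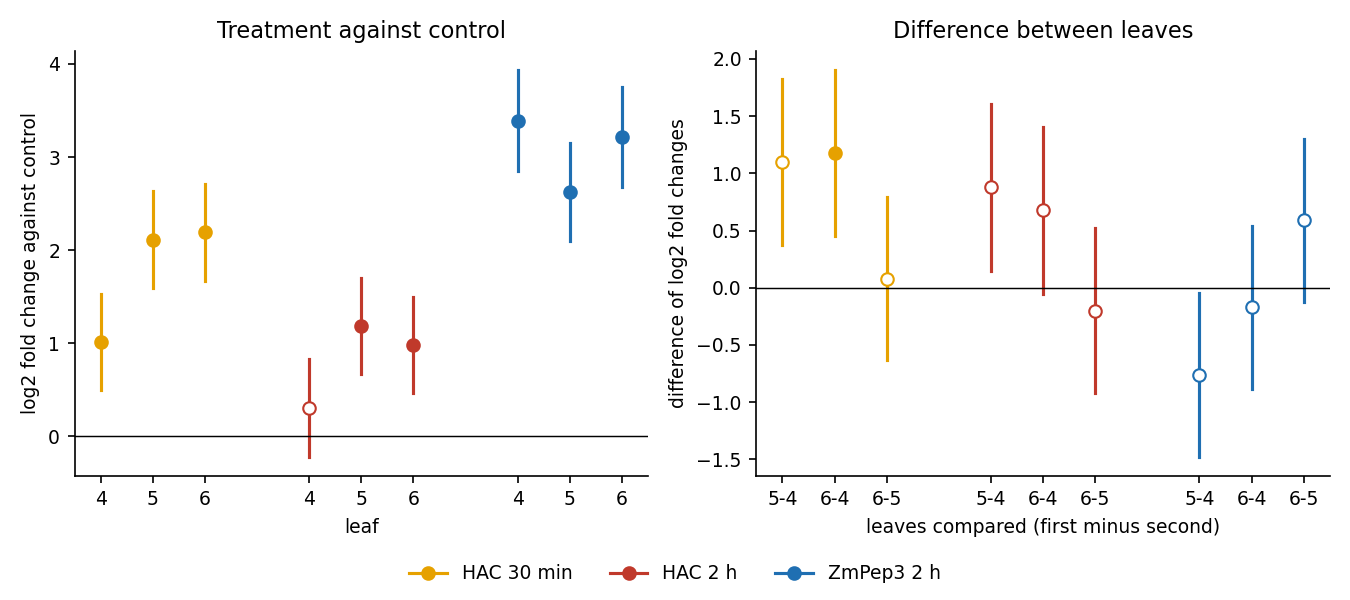
Log2 fold change of acs7 against the control of the same leaf (first panel) and the difference of those log2 fold changes between leaves (second panel); bars are 95% intervals and filled points have an adjusted p under 0.05. ZmPep3 gives 3.39, 2.63 and 3.22 in leaves 4, 5 and 6, HAC for 30 min gives 1.01, 2.11 and 2.19, and the filled point among the differences is leaf 6 minus leaf 4 for HAC for 30 min.

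The other genes of the pathway were matched by symbol or synonym, which gave 11 other genes tested. After 30 min of HAC, 1, 2 and 4 of the 11 rose in leaves 4, 5 and 6 and none fell, and after 2 h of HAC 1, 3 and 3 rose and none fell (edgeR quasi-likelihood test, adjusted p under 0.05). Of all genes tested, 2.53%, 8.15% and 8.49% rose and 1.85%, 4.75% and 3.21% fell in leaves 4, 5 and 6 after 30 min of HAC. After 2 h of HAC, 0.923%, 9.59% and 13.9% of all genes rose and 0.763%, 7.26% and 11% fell. Under ZmPep3, 4 of the 11 rose and 2 fell in leaf 4, and 7 rose and none fell in leaf 5 and in leaf 6. There 20.3%, 22.4% and 23.3% of all genes rose and 21.9%, 23% and 18.8% fell. The median log2 fold change of the 11 under ZmPep3 was 0.20, 0.56 and 1.24 in leaves 4, 5 and 6, beside -0.05, -0.06 and -0.02 over all genes tested. The part of green leaf tissue, whose summed marker level was lowest under ZmPep3, was not tested here either.

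ACS6, the other ACC synthase gene that could be matched, was much the lower of the pair. Its mean level ran from 0.18 FPKM in leaf 4 HAC 2 h to 2.76 FPKM in leaf 6 HAC 30 min, and some leaf 4 and leaf 5 libraries held no read of it. acs7 made up a median of 94.8% of the summed FPKM of acs7 and ACS6 in leaf 4 controls, 88.2% in leaf 5 controls and 68.0% in leaf 6 controls, where the libraries ran from 45.0% to 85.0%. Under ZmPep3 these medians were 95.5%, 94.5% and 93.3%. ACS6 rose under ZmPep3 by 2.44 ± 0.53 on the log2 scale in leaf 4 (edgeR adjusted p = 0.000121) and by 1.37 ± 0.50 in leaf 5 (adjusted p = 0.0205), and gave 0.66 in leaf 6 (adjusted p = 0.273). After 30 min of HAC it gave -0.00, 1.08 and 0.94 in leaves 4, 5 and 6, none of which passed, and after 2 h -0.46, -1.25 and -0.30, none of which passed.

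ACO31, an ACC oxidase gene of the step after ACC synthase, rose in 8 of the 9 comparisons of a treatment with its control. Its control levels had a lowest, median and highest of 2.62, 6.10 and 12.9 CPM in leaf 4, 1.10, 3.51 and 4.45 CPM in leaf 5 and 3.99, 7.56 and 57.0 CPM in leaf 6. The highest leaf 6 control was again replicate 4, the other 5 lying at or below 9.50 CPM. Under ZmPep3 the levels were 38.1, 68.6 and 120 CPM in leaf 4, 66.0, 115 and 125 CPM in leaf 5 and 211, 240 and 421 CPM in leaf 6, all above the controls of the same leaf. The ACO31 log2 fold changes were 3.40 ± 0.44, 5.19 ± 0.49 and 4.16 ± 0.45 under ZmPep3 in leaves 4, 5 and 6, with edgeR adjusted p of 3.29e-09, 7.59e-14 and 1.23e-11. After 30 min of HAC they were 1.51 ± 0.42, 4.07 ± 0.47 and 3.53 ± 0.44 (adjusted p = 0.0226, 2.47e-10 and 2.55e-09), and after 2 h 0.89, 2.65 ± 0.45 and 1.66 ± 0.41 (adjusted p = 0.301, 7.26e-06 and 0.00156). Without leaf 6 control replicate 4 the ACO31 changes in leaf 6 were 4.72, 2.85 and 5.35 after HAC for 30 min, HAC for 2 h and ZmPep3. As for acs7, the only comparison that did not pass was leaf 4 after 2 h of HAC.

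ACO31 also differed in response between leaves. Its rise after 30 min of HAC was larger than in leaf 4 by 2.56 ± 0.60 in leaf 5 (edgeR adjusted p = 0.00526) and by 2.02 ± 0.58 in leaf 6 (adjusted p = 0.0242), or 3.21 without leaf 6 control replicate 4. With all libraries, the ACO31 differences of leaf 6 from leaf 4 were 0.77 after 2 h of HAC and 0.76 under ZmPep3, and neither passed. Without that library they were 1.96 and 1.95 (edgeR adjusted p = 0.00217 and 0.00144). For genes other than acs7 it was the only single library left out, and it held the highest ACO31 level of the leaf 6 controls. These values thus show how far that library moved the differences and do not test them. ACO20, the other ACC oxidase gene matched, passed in none of the 9 comparisons. Together the ACC oxidase genes passed in 8 of their 18 tests, or 44.4%, beside 22.5% of tests over all genes. Per length ACO20 was the lower of the pair in each of the 12 groups, with group means from 1.10 to 6.42 FPKM against 2.65 to 208 FPKM for ACO31.

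**Figure D3:**
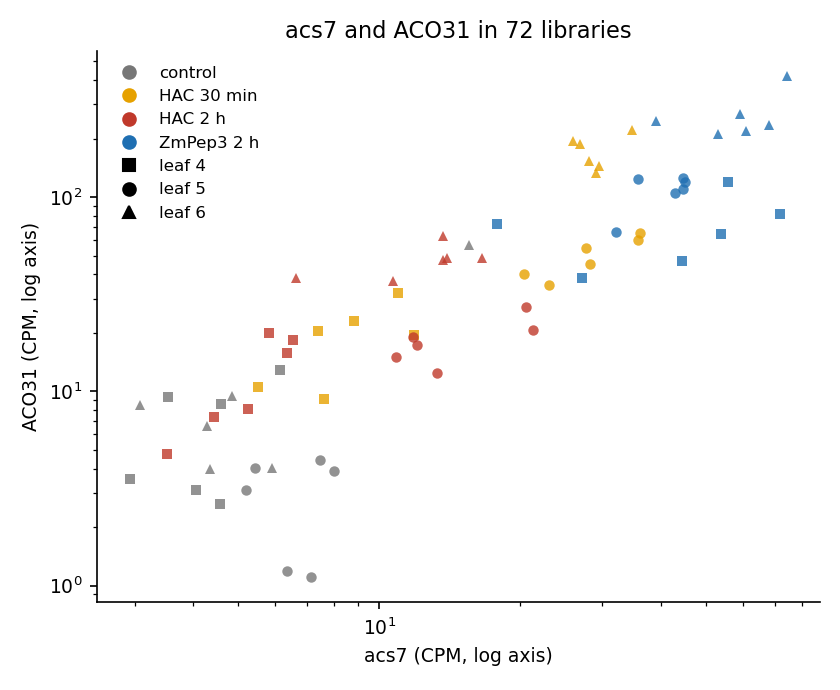
Level of acs7 (horizontal) and ACO31 (vertical) in each of the 72 libraries, in CPM on log axes, by leaf and treatment. The genes tend to be high in the same groups, but the order of groups differs. Mean ACO31 is 173 CPM in leaf 6 HAC 30 min, above leaf 4 and leaf 5 ZmPep3 at 70.7 and 108 CPM. For acs7 the first is the lower, at 29.0 CPM against 45.2 and 40.8 CPM. The leaf 6 control library with 15.6 CPM of acs7 is the one with 57.0 CPM of ACO31.

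SAMS1, an S-adenosylmethionine synthase gene of the step before ACC synthase, was far more abundant and followed another time course. Its mean level was 535, 284 and 171 FPKM in the controls of leaves 4, 5 and 6 and 2603, 1351 and 1027 FPKM under ZmPep3. SAMS1 rose under ZmPep3 by 2.50 ± 0.19, 2.30 ± 0.19 and 2.73 ± 0.19 on the log2 scale, with edgeR adjusted p of 1.28e-17, 1.12e-16 and 1.04e-19. After 2 h of HAC it rose by 0.95 ± 0.18, 1.99 ± 0.19 and 2.66 ± 0.19 (adjusted p = 0.00209, 1.78e-13 and 6.81e-19). After 30 min the values were 0.48 and 0.33 in leaves 4 and 5, which did not pass, and 0.56 ± 0.18 in leaf 6, which did (adjusted p = 0.0259) but not without leaf 6 control replicate 4 (0.52, adjusted p = 0.0644). Its counts were whole in 0 of 72 libraries, and RSEM divides reads between similar genes, so its level is uncertain.

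**Figure D4:**
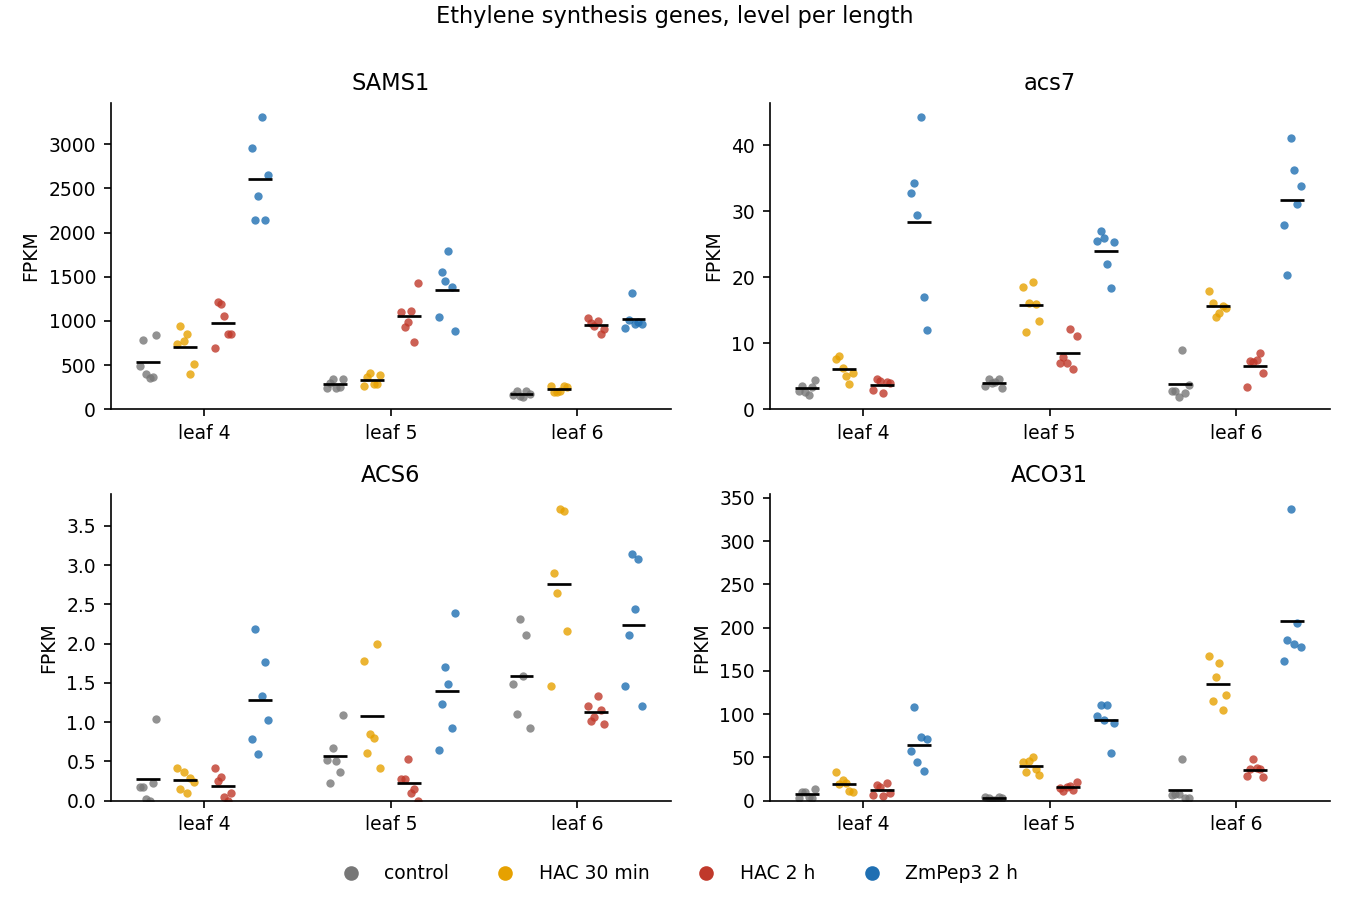
Level per transcript length (FPKM) of ethylene synthesis genes in each library, by leaf and treatment; points are libraries, black lines are group means and each panel has its own axis from 0. Group means reach 31.8 FPKM for acs7, 2.76 FPKM for ACS6, 208 FPKM for ACO31 and 2603 FPKM for SAMS1.

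The ethylene receptor genes etr2 and ERS14 passed in 6 of their 18 tests, or 33.3%, beside 22.5% of tests over all genes. Of these, etr2 rose in 5 of the 9 comparisons. Under ZmPep3 it rose by 0.42 ± 0.13, 0.69 ± 0.13 and 0.89 ± 0.13 in leaves 4, 5 and 6 (edgeR adjusted p = 0.0077, 1.47e-05 and 7.82e-08). It also rose after 30 min of HAC by 0.53 ± 0.13 in leaf 5 and 0.54 ± 0.13 in leaf 6 (adjusted p = 0.00294 and 0.00221). ERS14 rose in leaf 5 under ZmPep3 only, by 0.43 ± 0.15 (adjusted p = 0.0143), and its counts were whole in 0 of 72 libraries, so that its level is uncertain.

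Of the genes that lower ethylene sensitivity, 6 matched with values, 1 was removed by the filter on low counts (ARGOS7) and 5 were tested. ARGOS proteins are known to reduce the ethylene response in maize and in Arabidopsis, and RTE proteins to act on receptors in Arabidopsis. Over the 9 comparisons these 5 genes gave 9 rises and 2 falls, or 24.4% of their 45 tests, a share near the 22.5% of tests called over all genes in the same comparisons. ARGOS6 rose in all 3 treatments of leaf 6, by 0.89 ± 0.22, 1.00 ± 0.22 and 1.24 ± 0.22 after HAC for 30 min, HAC for 2 h and ZmPep3 (edgeR adjusted p = 0.00228, 0.000261 and 2.58e-06). In leaf 5 it rose after 2 h of HAC (0.60 ± 0.20) and under ZmPep3 (0.56 ± 0.20). ARGOS4 rose under ZmPep3 in leaf 5 (1.40 ± 0.32, adjusted p = 0.00027) and in leaf 6 (1.48 ± 0.32, adjusted p = 9.31e-05). ARGOS5 fell in leaf 4 (-0.91 ± 0.32, adjusted p = 0.0162) and rose in leaf 6 (1.36 ± 0.33, adjusted p = 0.000517) under ZmPep3, and RTE2 fell in leaf 4 under ZmPep3 (-0.63 ± 0.23, adjusted p = 0.0218). The remaining rise was ARGOS9 in leaf 6 under ZmPep3 (1.26 ± 0.52, adjusted p = 0.045), which did not pass without leaf 6 control replicate 4 (adjusted p = 0.0854).

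The genes with the pattern most like that of acs7 were ranked by Pearson's r of log2 CPM over the 72 libraries, among tested genes with a name other than a locus or clone number. This is a description over libraries that share groups and treatments. Of all 25558 genes tested, 92 had an r above 0.8, and the median r was 0.02. Among the 2404 named genes, 10 of which had an r above 0.8, the highest was 0.929, for CKX4b, a cytokinin dehydrogenase gene. The next named gene was ACO31 at 0.873, which ranked 12 among all genes tested. TIFY29 of the TIFY family followed at 0.856 (rank 23), the WRKY factor gene WRKY67 at 0.821 (rank 58), the SBP-box gene sbp18 at 0.817 and CKX4 at 0.817. The next were aos3 at 0.810, an allene oxide synthase gene of jasmonate synthesis, MYC2a at 0.807, a transcription factor gene of jasmonate signalling, GNAT32 at 0.807 and the potassium transporter gene HAK9 at 0.801. Within groups, after each group's mean was removed, r was 0.584 for CKX4b, 0.561 for ACO31 and 0.597 for sbp18, but 0.077 for HAK9.

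CKX4b had mean levels of 3.58, 4.77 and 4.81 CPM in the controls of leaves 4, 5 and 6. After 30 min of HAC these were 8.13, 51.4 and 56.7 CPM, after 2 h 4.44, 16.6 and 22.6 CPM, and under ZmPep3 47.0, 48.6 and 49.96 CPM. Its order of groups thus shared the low HAC level of leaf 4 with acs7, while its levels under 30 min of HAC in leaves 5 and 6 were near those under ZmPep3. Among named genes the most negative r were -0.758 for mop1, -0.732 for HAK23, -0.730 for EREB197, -0.718 for atGRF2 and -0.716 for SnRK2.6. Within groups EREB197 had an r of 0.225.

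In the reference assembly no gene overlapped acs7, and neither of the 2 genes before it had values. The next gene after it was called in none of the 9 comparisons of a treatment with its control. The second gene after it was called higher in 5 of them. These were HAC 2 h and ZmPep3 in leaf 5, and HAC 30 min, HAC 2 h and ZmPep3 in leaf 6. Of all genes tested, 9.59%, 22.4%, 8.49%, 13.9% and 23.3% were called higher there. Whether the genes share regulation was not tested.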

How the data were processed

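RNA from 72 leaf samples was sequenced by BGI as DNBSEQ libraries, per the labels' protocols. Bowtie2, RSEM and the assembly B73 RefGen_v4 are named, per the submitters' processing notes, with no versions. The deposited tables hold RSEM expected counts per NCBI Gene number, not scaled between libraries, and FPKM values, which the authors scaled to gene length and mapped fragments. Of 43547 entries, 11312 were blank in every library. Of the count values above 0, 11.09% were not whole (tolerance 1e-06). Whether counting used strand is not given in the sources used here.

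Expected counts were rounded. One coefficient was fitted for each of 12 groups with edgeR 4.0.16 (robust quasi-likelihood fit, TMM scaling, filterByExpr; R 4.3.3), 36 contrasts were tested, and p-values were adjusted by Benjamini-Hochberg over the 25558 genes tested, with a threshold of 0.05. Standard errors are the log2 fold change divided by the square root of F, and 95% intervals are not adjusted. CPM values for r used a prior count of 2. Alternatives used limma 3.58.1 on log2(FPKM + 1) and log2(FPKM + 0.1), DESeq2 1.42.0, other scaling and filters, a replicate block and left-out libraries. The pseudocounts understate changes of low genes, and the FPKM values carry no TMM scaling. The code was tested on simulated data.

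The study's p-values rest on replicates that the labels call biological. The labels give no pairing by replicate number, and libraries were not paired in the main fit. Of 396 same-number pairs from different groups, 23 had a correlation of deviations above 0.1. The median was 0.00925, beside -0.00222 for pairs with different numbers, for which the count above 0.1 was not taken. The gene, the lists and the alternatives were chosen with earlier results of these data known. The RefSeq annotation used (Zm-B73-REFERENCE-NAM-5.0) has symbols and synonyms but no product names, so lists planned by product name were matched by symbol, and 30403 genes with values matched. No methionine salvage or ACC synthase turnover gene, and no gene named acs2, could be matched, so these and a planned ratio of acs7 to acs2 were not analysed here. Named genes were acs7, the ACC synthases, up to 4 genes of each other list by smallest adjusted p, and the 10 most and 5 least correlated named genes; the ARGOS9 rise was named outside this rule after its value was seen. Overlaps and neighbours of acs7 were taken from gene positions in the reference assembly, which is another build than the one used for counting.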

Additional observations from a re-analysis of the deposited data

Results flagged for a closer look

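Differences in response between leaves passed the edgeR test for several genes of ethylene synthesis. The rise of acs7 after 30 min of HAC was larger in leaf 6 than in leaf 4 by 1.18 on the log2 scale (adjusted p = 0.0396). This call was lost when any 1 of 11 of the 24 libraries was left out, and with only its groups fitted (edgeR adjusted p = 0.111). The rise of ACO31 after 30 min of HAC was larger than in leaf 4 by 2.56 in leaf 5 (adjusted p = 0.00526) and by 2.02 in leaf 6 (adjusted p = 0.0242). For 30 min of HAC, 3.16% of all genes passed for leaf 5 minus leaf 4 and 5.25% for leaf 6 minus leaf 4. The rise of SAMS1 after 2 h of HAC was larger than in leaf 4 by 1.04 in leaf 5 (adjusted p = 0.00891) and by 1.71 in leaf 6 (adjusted p = 6.78e-07). For 2 h of HAC, 2.68% and 11.3% of all genes passed in the same comparisons. SAMS1 counts were whole in 0 of 72 libraries, so its level is uncertain.

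For acs7, ACS6, ACO31 and SAMS1, each of the 12 groups was examined for a single library far from the other 5. This made 48 combinations of gene and group, of which 6 held such a library. The gap to the nearest other library was 0.65 to 0.896 of the group's range. No rate expected by chance is given, since the CPM values were not put on a log scale and the genes share libraries. Leaf 6 control replicate 4 had 15.6 CPM of acs7 and 57.0 CPM of ACO31, above the rest of its group. ACO31 was low in leaf 5 ZmPep3 replicate 5 at 66.0 CPM, the others lying between 105 and 125 CPM. Leaf 6 ZmPep3 replicate 3 was high for ACO31 at 421 CPM (others 211 to 267 CPM) and for SAMS1 at 2191 CPM (others 1599 to 1787 CPM). ACS6 was highest in leaf 4 control replicate 6 at 1.16 CPM, with at most 0.251 CPM in the others.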

How the results depend on the processing

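The direction of acs7 in the 9 comparisons with control was the same under every alternative run. With a replicate block, all 36 results for acs7 kept their side of the threshold, for example 1.26 for the effect of HAC for 30 min in leaf 6 minus leaf 4. The cause of the changed calls that follow was not tested. For HAC for 30 min, leaf 5 minus leaf 4 passed with DESeq2 (1.12), with limma on log2(FPKM + 1) (0.99) and with only its groups fitted (1.11), and ran from 0.97 to 1.21 with each library left out. Leaf 6 minus leaf 4 did not pass without leaf 4 HAC 30 min replicates 5 and 6 (1.01), without leaf 6 control replicates 5 and 6 (1.05) or with only its groups fitted (1.18), and ran from 1.04 to 1.67. With only its groups fitted, leaf 4 HAC 2 h against 30 min passed (-0.71), leaf 6 against leaf 5 under ZmPep3 passed (0.48; 0.46 to 0.63 with a library left out) and leaf 6 HAC 2 h against control did not (0.98). In controls, leaf 5 against leaf 4 did not pass with DESeq2 size factors (0.58), without a filter (0.59) or with limma on FPKM plus 0.1 (0.36) or 1 (0.28), and ran from 0.53 to 0.74. Leaf 6 against leaf 4 in controls passed with DESeq2 size factors (0.58), the DESeq2 test (0.58), a non-robust fit (0.56) and without leaf 6 control replicates 5 and 6 (0.69), and ran from 0.063 to 0.70. The ranges above are over single libraries left out. On the same basis leaf 6 against leaf 4 under ZmPep3 ran from 0.22 to 0.57, and the HAC 2 h effect of leaf 6 minus leaf 4 from 0.53 to 1.17. Over the other alternatives these results ran from 0.046 to 0.42 and from 0.55 to 0.73. The ZmPep3 effect of leaf 5 minus leaf 4 passed without leaf 4 ZmPep3 replicates 5 and 6 (-1.07). Left-out pairs, the non-robust fit and r on FPKM were chosen after seeing the data, and left-out single libraries used the non-robust fit. For genes other than acs7, leaf 6 control replicate 4 was the only single library left out.

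Counts of all genes passing moved by over 1.5 times in some comparisons. Leaf 4 HAC 2 h against control gave 431 genes, 82 with only its groups fitted, 708 with DESeq2, and 710 and 773 with limma on FPKM plus 0.1 and 1. HAC for 30 min against control gave 1119, 3298 and 2990 genes in leaves 4, 5 and 6, and 1776, 5053 and 4927 with limma on FPKM plus 1 (4691 in leaf 6 with 0.1). Differences of response gave 445 genes for HAC 2 h leaf 6 minus leaf 5 (706 with DESeq2, 277 without leaf 6 control replicates 5 and 6, 244 with only its groups), 92 for HAC 30 min (205, 51 and 16), and 529 for ZmPep3 (802 with DESeq2, 335 with only its groups). ZmPep3 leaf 5 minus leaf 4 gave 1911, and 3148 and 3502 with limma on FPKM plus 0.1 and 1.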
